A study of Mus musculus with 2 samples.

Results

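The 10 receptors described here are G protein-coupled receptors (GPCRs) through which hormones, neurotransmitters and fatty acids adjust insulin release: Glp1r, Gipr, Gcgr, Adcyap1r1, Gpr119, Ffar1, Ghsr, Sstr3, Adra2a and Galr1. They were chosen by gene symbol, and all 10 have a row among the 27179 gene rows of the count table. RNA sequencing measured their transcripts in MIN6, an insulin-secreting line from a mouse insulinoma that serves as a beta-cell model. Cells of the C2cd4a-GFP library expressed C2cd4a joined to green fluorescent protein (GFP), and cells of the Control-GFP library expressed the control construct. The labels describe adenoviral infection at a multiplicity of 100 with RNA taken 72 to 96 h later, in identical words that name the C2cd4a-GFP construct for both libraries, so only the titles and the named constructs tell the groups apart. Which promoter drives the construct is not stated in the labels. There was 1 library per condition, so no difference between them has a replicate check.

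In beta cells, receptors that couple to the stimulatory protein Gs raise cyclic AMP and amplify glucose-stimulated insulin release. This group holds the receptors for GLP-1, GIP, glucagon and PACAP, and the lipid receptor Gpr119. The fatty acid receptor Ffar1 acts mainly through Gq and phospholipase C, whereas the somatostatin, alpha2-adrenergic and galanin receptors couple to Gi/o, lower cyclic AMP and restrain release. Ghsr, the ghrelin receptor, couples to Gq in many cells, and ghrelin is known to inhibit insulin release.

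The libraries held 30164106 counts (C2cd4a-GFP) and 31039999 counts (Control-GFP). C2cd4a itself stood at 1608 CPM (counts scaled by library size) with C2cd4a-GFP and 4.35 CPM with Control-GFP. All 14 beta-cell markers reached a mean of 1 CPM, and their summed level was 79046 CPM with C2cd4a-GFP against 90220 CPM with Control-GFP, most of it Ins2 (57072 and 65490 CPM). In the authors' deposited table (DESeq2, adjusted p under 0.05) 4 of these 14 fell and 1 rose, against 6.58% and 7.0% over all genes. The 1 that rose was Neurod1 (153 against 118 CPM, a log2 ratio of 0.37, adjusted p = 0.00175 there). Those that fell included Slc2a2, the glucose transporter GLUT2 (182 against 311 CPM, a log2 ratio of -0.77, adjusted p = 7.60e-14 in the authors' deposited table), and Ins1 (1715 against 3218 CPM, -0.91, adjusted p = 0.0037 there), whose reads may be shared in part with the closely similar Ins2. The part of these marker differences in those of the receptors was not tested. Of 6 acinar markers 5 had 0 counts in both libraries, as did the duct markers Krt19 and Sox9 and the delta-cell factor Hhex. The summed level of 4 alpha-cell markers was 665 CPM against 546 CPM, and that of the 4 delta-cell markers, Ghsr included, was 3.66 CPM against 4.48 CPM. Fewer cells of a type and less RNA per cell cannot be told apart in such libraries.

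The stretches upstream of 3 receptors are shown because Sstr3 fell, by the authors' deposited table, and Ffar1 and Glp1r are the most abundant stimulatory receptors per length. Each holds the 250 bases before the RefSeq transcription start (build GRCm38.p6, the assembly that mm10 names), and RefSeq starts were matched for 8 of the 10 receptors. Sstr3 has 2 such starts, and the one at the end of the deposited gene model is shown. Capitals mark TGACG, a half-site of the cyclic AMP response element, or CAGATG, an E-box that NeuroD1 can bind, searched on both strands. The full element TGACGTCA and the TATA box TATAAA were searched likewise, and a full element would hold a half-site.
Sstr3, chr15:78544346-78544595, minus strand: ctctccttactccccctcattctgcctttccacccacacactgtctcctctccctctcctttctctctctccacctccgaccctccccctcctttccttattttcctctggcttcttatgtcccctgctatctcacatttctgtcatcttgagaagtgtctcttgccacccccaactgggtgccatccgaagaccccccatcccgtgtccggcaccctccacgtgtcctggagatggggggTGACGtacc
Ffar1, chr7:30861471-30861720, minus strand: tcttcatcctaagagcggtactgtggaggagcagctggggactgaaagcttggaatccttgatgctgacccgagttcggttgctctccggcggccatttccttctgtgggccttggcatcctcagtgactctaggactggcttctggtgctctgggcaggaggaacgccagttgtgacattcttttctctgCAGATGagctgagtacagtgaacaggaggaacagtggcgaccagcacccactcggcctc
Glp1r, chr17:30901617-30901866, plus strand: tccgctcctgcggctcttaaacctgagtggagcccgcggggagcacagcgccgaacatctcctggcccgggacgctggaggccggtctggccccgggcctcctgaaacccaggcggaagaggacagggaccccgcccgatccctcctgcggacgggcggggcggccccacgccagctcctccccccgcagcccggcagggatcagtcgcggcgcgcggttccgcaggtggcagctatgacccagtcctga
The Sstr3 stretch had 1 TGACG and the Ffar1 stretch 1 CAGATG, while the Glp1r stretch had no match to these motifs. TGACG also stood once upstream of Adra2a and of Gpr119. TGACG occurred in 17.8% and CAGATG in 14.4% of 32851 mouse upstream stretches of the same length. The full element TGACGTCA occurred in 1.55% of those stretches and in none of the 9 stretches of the matched receptors, and TATAAA in 12.4% and in that of Adra2a alone. The Glp1r stretch was 73.2% G or C with 26 CpG dinucleotides, against medians of 52.4% and 6 over all stretches, and those of Ffar1 and Sstr3 had 56.4% and 57.2% with 8 and 6. A match or its absence describes these letters only.

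Both libraries were led by an inhibitory receptor, followed by the fatty acid and GLP-1 receptors. To compare genes, counts were divided by summed exon length and scaled to the same total in each library (length-scaled level). On this scale Adra2a stood at 152 with C2cd4a-GFP and 129 with Control-GFP, Ffar1 at 91.4 and 101, and Glp1r at 81.0 and 78.1. They were the highest 3 of 129 islet receptor genes, the 10 and 119 others, in both libraries, and the order among them lay outside their 95% counting intervals. Gipr (40.6 and 43.4) and Sstr3 (20.2 and 23.5) came next among the 10. A wide gap separated these from Galr1 (3.75 and 2.58), Adcyap1r1 (0.871 and 1.09), Ghsr (0.633 and 0.346) and Gpr119 (0.379 and 0.513). Ghsr and Gpr119 could not be ordered, since their counting intervals overlapped in both libraries, and those of Ghsr and Adcyap1r1 overlapped in the C2cd4a-GFP library. Gcgr had 0 counts with C2cd4a-GFP and 4 with Control-GFP.

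**Figure D1:**
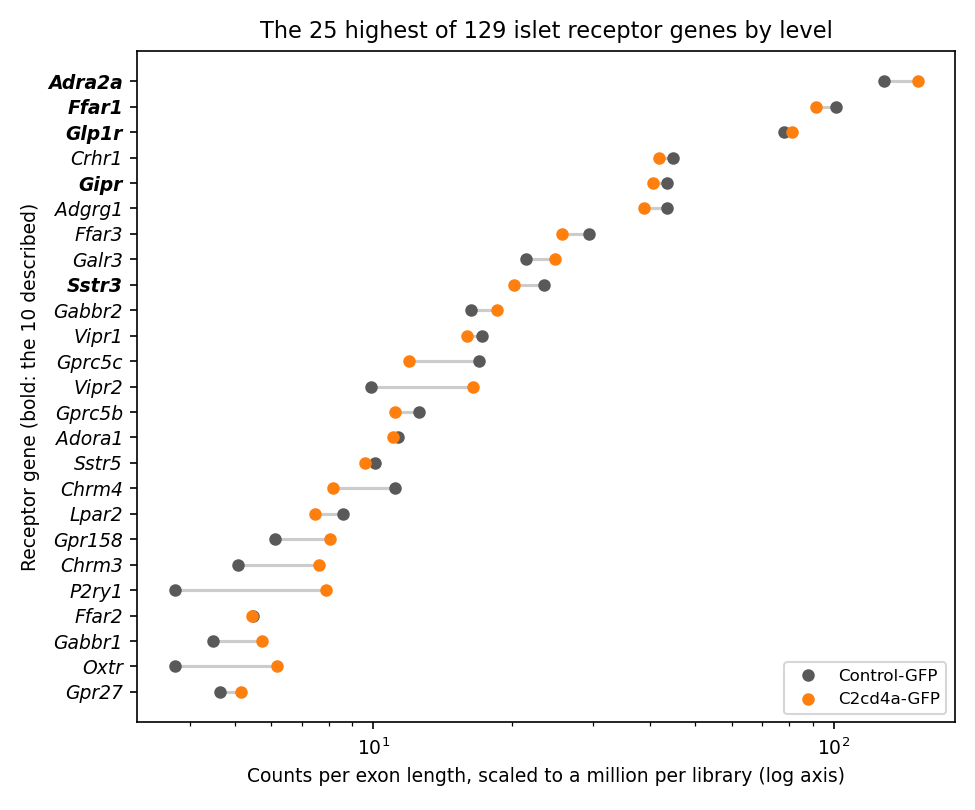
Length-scaled level (counts over exon length, scaled to the same total, log axis) of the 25 highest of 129 islet receptor genes in the Control-GFP (grey) and C2cd4a-GFP (orange) libraries, with the 10 receptors described here in bold. Adra2a, Ffar1 and Glp1r lead in both libraries, and Gipr and Sstr3 are the only others of the 10 in this range.

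The gene models behind the length-scaled levels differ in how much untranslated sequence they hold. The Ffar1 model of 903 bases is coding length with a stop codon, and coding sequence makes up 93.9% of the 1480-base Glp1r model. In contrast it makes up 36.7% of the 3801-base Adra2a model, 32.7% of the 3928-base Sstr3 model and 25.2% of the 6243-base Adcyap1r1 model. Reads from untranslated sequence outside a model were not counted, and how far this moves a level was not tested. No exon of the 10 overlapped an exon of another gene in GENCODE M21.

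Differences between the libraries are given as ratios of C2cd4a-GFP over Control-GFP of CPM scaled with TMM factors, a scaling that sets most genes near equality. Each ratio has a 95% exact (Clopper-Pearson) interval that covers counting error only. Of the 10 receptors, 8 reached a mean of 1 CPM, the minimum for a comparison, and Gpr119 and Gcgr did not. The size rule called a gene where its level differed by 1.5-fold or more and the interval left out equality. Among all 12759 genes at this minimum, 4.23% were called higher and 4.23% lower, and scaling by total counts turned 540 higher and 540 lower into 682 and 453. Of the 8 receptors 1, Ghsr, was called higher and 0 were called lower. Their median log2 ratio was -0.14, with a range of -0.44 to 0.76, against a median of -0.01 over all genes and a 5th to 95th percentile range of -0.56 to 0.56. The 95% exact Poisson intervals of the levels did not overlap between the libraries for 4 of the 8 receptors and 51.3% of all genes. The interval of the ratio left out equality for 87.5% of the 8 receptors and 63.5% of all genes. A difference beyond counting error was thus common at this depth.

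The words rose and fell follow the authors' deposited table, which gives a DESeq2 adjusted p over 14619 genes, of which 7.0% rose and 6.58% fell at a threshold of 0.05. Among the receptors Galr1 rose, Sstr3 fell and 7 did not pass by the authors' deposited table, while Gcgr has no adjusted p. The labels do not state how many libraries stand behind those p-values.

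**Figure D2:**
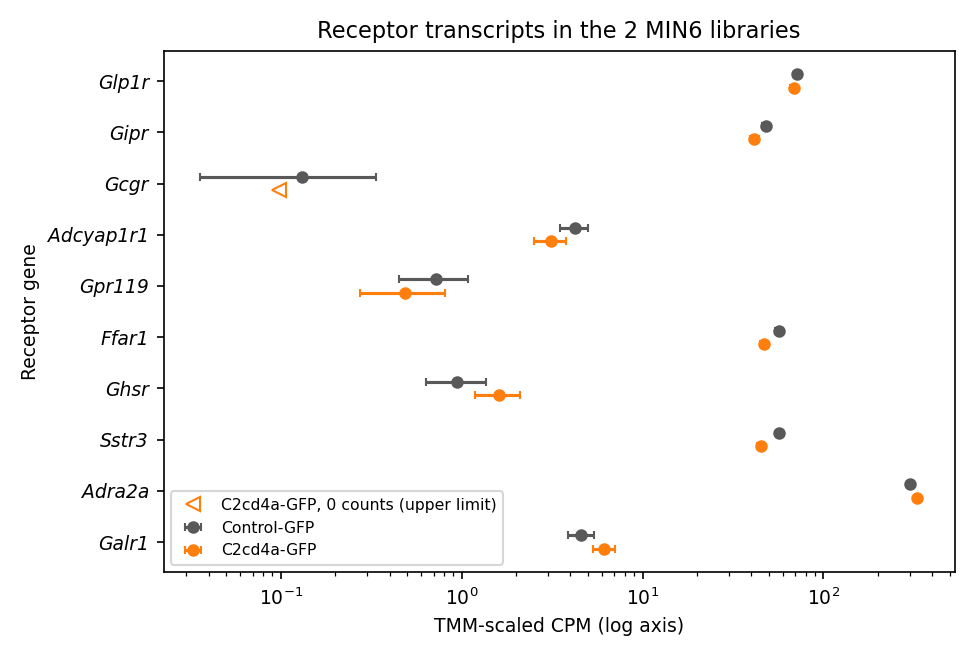
TMM-scaled CPM (log axis) of the 10 receptors in the Control-GFP (grey) and C2cd4a-GFP (orange) libraries, with bars for the 95% exact Poisson interval of the count and an open triangle at the limit that 0 counts allow. Levels run from Adra2a at 330 and 302 CPM to Gcgr, and the bars of Adra2a, Ffar1, Sstr3 and Gipr do not overlap between the libraries, as for 51.3% of all genes at the minimum.

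In the C2cd4a-GFP library Glp1r was near equality, and the other Gs-coupled receptors read lower by their counts. None of them passed in the authors' deposited table, where Gcgr has no adjusted p. Glp1r (gene ID 14652, mm10 chromosome 17, 30901867 to 30936510), the receptor of the incretin GLP-1, was read with 2093 counts (C2cd4a-GFP) and 2183 counts (Control-GFP), or 68.4 and 71.4 CPM. Its log2 ratio was -0.06 (-0.15 to 0.02), so no difference was detectable at this depth, and a change of more than 1.11-fold downward lay outside the interval. Its direction turned with the scaling: the log2 ratio was 0.05 in length-scaled levels, 0.04 after removal of a trend with exon length, and 0.08 once a trend with GC content was removed too. The authors' deposited table has -0.14 for Glp1r (adjusted p = 0.72).

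Gipr (gene ID 381853, chromosome 7, 19157125 to 19166127), the receptor of the other incretin GIP, was slightly lower. It had 1271 counts against 1469, or 41.5 and 48.0 CPM, a log2 ratio of -0.21 (-0.32 to -0.10). The level intervals of the libraries did not overlap, but the ratio was 0.03 (-0.08 to 0.14) after the trends with exon length and GC content were removed. The authors' deposited table has -0.25 for Gipr, with a p of 0.0362 before adjustment and 0.157 after it. The length-scaled level of Glp1r over that of Gipr was 1.99 with C2cd4a-GFP and 1.80 with Control-GFP.

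Adcyap1r1 (gene ID 11517, chromosome 6, 55451980 to 55501455) encodes PAC1, the receptor that prefers PACAP over VIP. It had 95 counts against 129, or 3.10 and 4.22 CPM, a log2 ratio of -0.44 (-0.84 to -0.05), and its level intervals overlapped. The authors' deposited table has -0.32 for Adcyap1r1 (adjusted p = 0.273). The other receptors of PACAP and VIP differed from each other. Vipr1 had 1368 counts against 1592 (-0.22, -0.33 to -0.12), whereas Vipr2 had 976 against 633 (0.62, 0.48 to 0.77). Vipr2 rose in the authors' deposited table by 0.59 (adjusted p = 0.00103) and Vipr1 did not pass there (-0.27, adjusted p = 0.069). Vipr1 and Vipr2 stood at 16.0 and 16.5 on the length-scaled level in the C2cd4a-GFP library, above the 0.871 of Adcyap1r1. In the Control-GFP library Vipr1 and Vipr2 stood at 17.2 and 9.90, above the 1.09 of Adcyap1r1.

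The remaining Gs-coupled receptors were at the edge of detection. Gpr119, a receptor for oleoylethanolamide and lysolipids on the X chromosome, had 15 counts against 22, or 0.490 and 0.719 CPM. The log2 ratio of -0.55 (-1.61 to 0.46) leaves either direction within counting error. Gcgr, the glucagon receptor, had 0 counts in the C2cd4a-GFP library, which allows up to 0.098 CPM, against 0.131 CPM in the Control-GFP library. Read against that limit of 3 counts Gcgr was 1.33-fold lower, a value that leaves out the counting error of the Control-GFP library. The upper interval bound of its ratio was 1.51, so no difference was detectable.

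**Figure D3:**
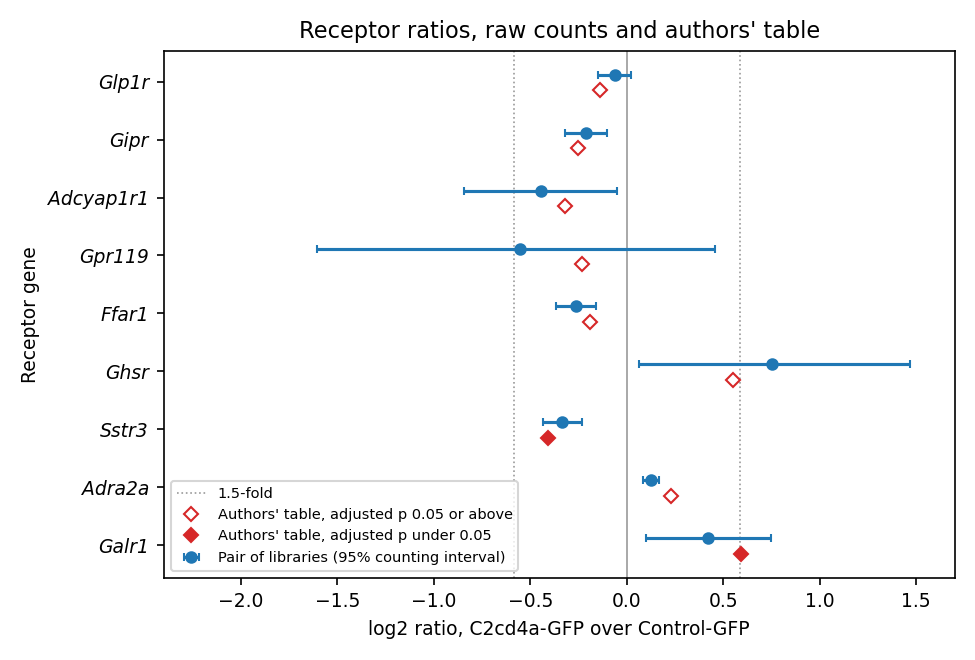
Log2 ratio of C2cd4a-GFP over Control-GFP for 9 receptors from the pair of libraries (blue, with 95% counting intervals) and the fold change in the authors' deposited table (red diamonds, filled where the adjusted p is under 0.05). Filled diamonds mark Sstr3 at -0.41 and Galr1 at 0.59, dotted lines mark 1.5-fold, and Gcgr is left out because of its 0 counts.

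Ffar1 (gene ID 233081, chromosome 7, 30860568 to 30861470), also called GPR40, senses long-chain fatty acids. It had 1441 counts against 1726, or 47.1 and 56.4 CPM, a log2 ratio of -0.26 (-0.36 to -0.16), and its level intervals did not overlap. The ratio was -0.08 (-0.18 to 0.02) after removal of the trends with exon length and GC content, and the authors' deposited table has -0.19 for Ffar1 (adjusted p = 0.522). Ffar3 and Ffar2, the receptors of short-chain fatty acids, had 729 against 905 counts (-0.31, -0.46 to -0.17) and 269 against 293 (-0.13, -0.37 to 0.12). Ffar4, another long-chain fatty acid receptor, met the size rule as lower, with 21 counts against 46 (-1.13, -1.95 to -0.36). None of the 4 passed in the authors' deposited table, where the adjusted p of Ffar2, Ffar3 and Ffar4 was 0.471, 0.0641 and 0.0597.

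The inhibitory receptors went in different directions, with Sstr3 lower, Galr1 higher and Adra2a slightly higher. Sstr3 (gene ID 20607, chromosome 15, 78537015 to 78544345) is a somatostatin receptor that localises to primary cilia. It had 1385 counts against 1743, or 45.2 and 57.0 CPM, a log2 ratio of -0.33 (-0.44 to -0.23), and the level intervals did not overlap. That is a 1.26-fold lower level, below the size rule. Sstr3 fell in the authors' deposited table by 0.41 (adjusted p = 0.000699), from a normalized value of 1770 to 1334. The direction was kept under every alternative tried, between -0.41 and -0.22.

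Of the other somatostatin receptors, Sstr5 and Sstr2 were measurable. Sstr5 had 459 counts against 521 (-0.18, -0.37 to 0.00) without passing in the authors' deposited table (-0.03, adjusted p = 0.915). Sstr2 had 50 counts against 24, which met the size rule as higher (1.06, 0.33 to 1.82). It reached 1 CPM only in the C2cd4a-GFP library, at 1.63 against 0.785 CPM. The authors' deposited table has 0.84 for Sstr2 (adjusted p = 0.0532). At length-scaled levels of 2.47 and 1.10, Sstr2 remained far below Sstr3. Sstr1 had 3 and 4 counts and Sstr4 had 0 in both libraries.

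Adra2a (gene ID 11551, chromosome 19, 54045182 to 54048982), the alpha2A-adrenergic receptor through which adrenaline suppresses insulin release, had the most counts of the 10. It had 10098 counts against 9242, or 330 and 302 CPM, a log2 ratio of 0.13 (0.09 to 0.17). The level intervals did not overlap, for a 1.09-fold difference. The authors' deposited table has 0.23 for Adra2a, with a p of 0.0224 before adjustment and 0.113 after it. Adra2b and Adra2c had 177 against 190 counts (-0.10, -0.41 to 0.20) and 199 against 233 (-0.23, -0.51 to 0.05), so neither differed beyond counting error.

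Galr1 (gene ID 14427, chromosome 18) binds galanin, a peptide that inhibits insulin release. It had 188 counts against 140, or 6.14 and 4.58 CPM, a log2 ratio of 0.42 (0.10 to 0.75), and the level intervals overlapped slightly. Galr1 rose in the authors' deposited table by 0.59 (adjusted p = 0.00836), from a normalized value of 132 to 199. Its 1.34-fold higher level in the pair is below the size rule. Galr3 had 539 counts against 504 (0.10, -0.08 to 0.27) and stood above Galr1 on the length-scaled level, at 24.8 and 21.4. Galr2 had 1 count in each library.

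Ghsr (gene ID 208188, chromosome 3, 27371351 to 27378010) had 49 counts against 29, or 1.60 and 0.948 CPM. It was the only one of the 10 to meet the size rule, at 1.69-fold higher and a log2 ratio of 0.76 (0.06 to 1.47). The level intervals overlapped, and the mean of 1.27 CPM lies just above the minimum of 1 CPM. Only the C2cd4a-GFP library, where Ghsr was higher, reached 1 CPM. The interval included equality after removal of the trend with exon length (0.68, -0.01 to 1.40), and the authors' deposited table has 0.55 (adjusted p = 0.229). In mouse islets Ghsr is known mainly from delta cells. The delta-cell marker Sst had 8 counts against 4, Rbp4 had 55 against 104 and Hhex had 0 in both libraries, and the part of such cells in the Ghsr difference was not tested. Ghrl, the ghrelin precursor, had 38 counts against 23 (0.72, -0.06 to 1.54).

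Summed over members of these 10 only, the Gi/o-coupled level was higher relative to the Gs-coupled level in the C2cd4a-GFP library. The Gs sum leaves out the PACAP receptors Vipr1 (16.0 and 17.2) and Vipr2 (16.5 and 9.90). The Gi/o sum leaves out Galr3 (24.8 and 21.4) and Sstr5 (9.62 and 10.1), among others. The length-scaled levels of the 5 Gs-coupled receptors summed to 123 in both libraries, a log2 ratio of 0.00 (-0.07 to 0.06). Those of Sstr3, Adra2a and Galr1 summed to 176 and 155, a log2 ratio of 0.19 (0.15 to 0.22). Length scaling moved the ratio of every gene up by 0.12 on the log2 scale relative to TMM scaling, and the median of all genes to 0.11, so both sums read lower under TMM scaling, at -0.12 and 0.07. The Gi/o sum over the Gs sum, which this shift does not touch, was 1.43 with C2cd4a-GFP and 1.26 with Control-GFP, a log2 difference of 0.19 that shrank to 0.05 after removal of the trend with exon length and was 0.16 with the GC trend removed too. Adra2a made up 86.4% and 83.2% of the Gi/o sum. Without Adra2a, the Gi/o sum was 23.9 against 26.1 (-0.12, -0.22 to -0.03).

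**Figure D4:**
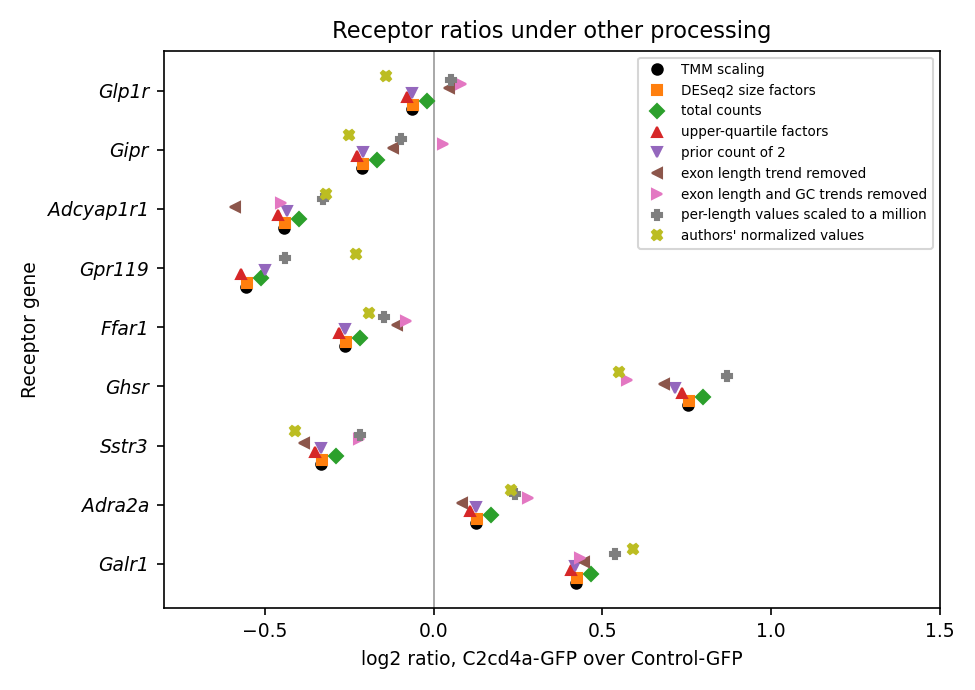
Log2 ratio of C2cd4a-GFP over Control-GFP for 9 receptors under TMM scaling (black) and 8 other settings, 1 symbol each. Glp1r and Gipr lie on both sides of 0, and the other 7 keep their side, with Sstr3 between -0.41 and -0.22 and Galr1 between 0.41 and 0.59.

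Downstream of these receptors, 82 genes of 5 signalling lists were measured at 1 CPM or more, of which 5 (6.1%) met the size rule as higher and 1 (1.22%) as lower, near the 4.23% each way over all genes. Of 13 G protein alpha subunit genes 11 were measured at 1 CPM or more, with a median log2 ratio of -0.01, and 0 met the size rule. DESeq2 in the authors' deposited table has 1 of 12 that fell and 0 that rose, against 6.58% and 7.0% over all genes. At an unadjusted p under 0.05 these counts were the same. For this list and those below, the share over all genes at an unadjusted p was not computed. The gene that fell was Gnas, which encodes the Gs alpha subunit. It had 53104 counts against 66028, with -0.32 (-0.33 to -0.30) as its log2 ratio, and -0.32 (adjusted p = 0.00114) in the authors' deposited table. Gnai2, a Gi alpha subunit, was at -0.17 (-0.20 to -0.14) without passing in the authors' deposited table (-0.02, adjusted p = 0.94). Gnas is an imprinted locus with several overlapping transcripts, and these counts do not separate them.

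Among 12 measured beta and gamma subunit genes the median was -0.11. The authors' deposited table (DESeq2) has 1 of 13 that rose and 3 that fell, against 7.0% and 6.58% over all genes. At an unadjusted p under 0.05 these counts were 1 and 4. Gng12 was higher, with 13449 counts against 8689 (0.63, 0.59 to 0.67), and by the authors' deposited table it rose (0.52, adjusted p = 7.92e-05). Gng13 had 27 counts against 47 (-0.80, -1.54 to -0.09) and did not pass there (adjusted p = 0.34). It reached 1 CPM only in the Control-GFP library, at 0.882 against 1.54 CPM. The 3 that fell in the authors' deposited table, picked out after their values were seen, were Gng7 (-0.61), Gng3 (-0.34) and Gnb5 (-0.32).

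Of 22 measured cyclic AMP effector and CREB pathway genes, 2 met the size rule as higher and 0 as lower, and the median was 0.19. Crem, a cyclic AMP-responsive transcription factor, had 415 counts against 276 (0.59, 0.36 to 0.81), and Akap5, an anchoring protein for protein kinase A, had 168 against 92 (0.87, 0.49 to 1.25). In the authors' deposited table (DESeq2) 4 of 23 rose and 2 fell, against 7.0% and 6.58% over all genes, and 8 and 2 at an unadjusted p under 0.05. Crem was among those that rose (0.46, adjusted p = 0.0281), while Akap5 did not pass (adjusted p = 0.281). Of the 4 regulatory subunit genes of protein kinase A, Prkar1a rose (0.38, adjusted p = 0.000569) and Prkar1b fell (-0.45, adjusted p = 4.59e-05) in the authors' deposited table, while Prkar2a (0.17, adjusted p = 0.628) and Prkar2b (0.06, adjusted p = 0.801) did not pass there. These 4 were named after their values were seen.

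The list of phospholipase C and protein kinase C effectors, which also holds diacylglycerol kinase (Dgk) genes, had a median of 0.12 over 21 measured genes. Gq activates the beta isoforms of phospholipase C, whereas the list also holds isoforms that act elsewhere, such as the gamma isoforms downstream of tyrosine kinases and the atypical protein kinases C. Prkcb, a conventional protein kinase C, had 1882 counts against 1166 (0.69, 0.58 to 0.80), and Prkd1, protein kinase D, had 459 against 295 (0.64, 0.42 to 0.85). In the authors' deposited table (DESeq2) 3 of 22 rose and 0 fell, against 7.0% and 6.58% over all genes. At an unadjusted p under 0.05 these counts were 6 and 1. Prkcb (0.61, adjusted p = 0.029) and Prkd1 (0.56, adjusted p = 0.0425) rose there, as did Plcg2 (0.57, adjusted p = 0.00171), the last named after its value was seen.

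Of 16 measured genes for receptor kinases, arrestins and accessory proteins, 0 met the size rule and the median was -0.08. The most abundant, Atp6ap2 and Pgrmc1, were at 0.26 (0.22 to 0.31) and 0.15 (0.10 to 0.20), and neither passed in the authors' deposited table (adjusted p = 0.0917 and 0.208). In the authors' deposited table (DESeq2) 1 of 16 fell and 0 rose, against 6.58% and 7.0% over all genes. At an unadjusted p under 0.05 these counts were 3 and 2. The one that fell was the receptor kinase gene Grk5 (-0.41, adjusted p = 0.035), named after its value was seen.

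Of 10 ligand precursor genes, only Gcg reached a mean of 1 CPM. Gcg, the precursor of glucagon and GLP-1 and a marker of alpha cells, had 2292 counts against 1511, or 74.9 and 49.4 CPM, a log2 ratio of 0.60 (0.51 to 0.69). By the authors' deposited table (DESeq2) it rose (0.49, adjusted p = 1.51e-05). There 1 of 3 ligand genes with an adjusted p rose and 0 fell, against 7.0% and 6.58% over all genes. At an unadjusted p under 0.05 these counts were 2 and 0. Other alpha-cell markers were Ttr with 17926 counts against 15069, Irx2 with 129 against 108 and Irx1 with 20 against 13. Gip and Vip had 0 counts in both libraries and Gal 1 count in each, the precursors of the ligands GIP, VIP and galanin.

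Among 119 other islet GPCR genes, 46 were measured at 1 CPM or more, with a median log2 ratio of 0.06, 8 called higher and 2 lower by size. By share these were 17.4% and 4.35%, against 4.23% each way over all genes. In the authors' deposited table (DESeq2) 8 of 55 rose and 4 fell, against 7.0% and 6.58% over all genes, and 12 and 11 at an unadjusted p under 0.05. Tas1r2, a sweet taste receptor subunit, had the largest ratio, with 141 counts against 33 (2.09, 1.54 to 2.69), and by the authors' deposited table it rose (1.75, adjusted p = 3.54e-13). P2ry1, a purinergic receptor, had 536 counts against 272 (0.98, 0.76 to 1.19), and Oxtr, the oxytocin receptor, had 492 against 320 (0.62, 0.41 to 0.83). The cannabinoid receptor gene Cnr1 had 98 against 57 (0.78, 0.30 to 1.28). These 3 also rose in the authors' deposited table, by 0.75, 0.58 and 0.83 (adjusted p = 7.50e-05, 0.0114 and 0.0105). Adora3 (0.61, 0.20 to 1.03) and P2ry12 (0.76, 0.03 to 1.52), named after their values were seen, also met the size rule as higher. Neither passed in the authors' deposited table (0.42 and -0.38, adjusted p = 0.152 and 0.591). P2ry12 reached 1 CPM only in the C2cd4a-GFP library, at 1.44 against 0.850 CPM. Sstr2, called higher, and Ffar4, called lower, likewise reached 1 CPM only in the library where each was higher. Gprc5c, an orphan receptor, had 975 counts against 1501 (-0.62, -0.74 to -0.51) and fell in the authors' deposited table by 0.54 (adjusted p = 9.99e-05).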

How the data were processed

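RNA libraries were poly-A selected and directional, read as 42 bp pairs, per the labels' protocols. Per the file headers, the deposited table gives raw counts for each gene beside exon coordinates and summed exon length. The submitters' processing notes name STAR 2.5.2b, featureCounts, Subread 1.5.2, DESeq2 1.14.1 and mm10, without roles. No source used here states whether counting was strand-aware. The authors' deposited log2 fold change and p-values (raw and adjusted) stand in the same table, whose sheet title names DESeq2. A second deposited table holds the authors' normalized value (a score) per condition, rounded to whole numbers. For 100% of 26305 genes joined by symbol, the log2 ratio of these values, with 1 added to each, gave the authors' fold change within 0.005. The authors' normalized values were not these counts times 1 factor. In C2cd4a-GFP the value over the count was 0.841 for Glp1r and 1.08 for Adra2a. The authors' table may draw on more than these libraries, and it is not taken as independent of them.

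Scaling used edgeR 4.0.16 (R 4.3.3), whose TMM factors were 1.015 and 0.985. Ratios, intervals and exact limits were computed with SciPy 1.17.1. Without molecular identifiers these cover counting error only. For 0 counts the limit was 3 counts. No test was fitted, as each group has 1 library. Intervals of summed levels treat counts as Poisson. Alternatives were total counts, upper-quartile factors, size factors from DESeq2 1.42.0, a prior count of 2, lowess trends (span 0.3) with exon length and GC content of GENCODE M21 transcripts, and other filters and size rules. Length scaling of single ratios and TMM scaling of sums were added after seeing the data. The ratio calculation was tested on simulated counts.

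The receptors and lists were chosen with earlier results of these data known. Named genes were the 10 receptors, their paralogs and, from each list, up to 4 (other GPCRs: up to 8) that met the size rule, ranked by the interval bound nearest equality, or the most abundant. The paralogs were added after that rule was written. Some markers are not reported here.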

Additional observations from a re-analysis of the deposited data

How the results depend on the processing

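Of the 9 receptors with a ratio, 7 kept their direction under all of the 8 alternatives that gave a value, and Glp1r and Gipr did not. Of 70 such values 55 lay within the counting interval of the TMM-scaled ratio and 15 outside it. The cause was not tested. Ghsr was called higher under TMM scaling. The number of receptors called higher was 0 instead of 1 after removal of the trend with exon length, with that and the GC trend, with a minimum of 5 CPM and at a ratio of at least 2, and 2 (with Galr1) at a ratio of at least 1.2. The number called lower was 1 instead of 0 without the trend with exon length (Adcyap1r1), and 2 at a ratio of at least 1.2 (Adcyap1r1 and Sstr3). With an adjusted p under 0.1 or under 0.01 the authors' deposited table has the same counts, 1 rising and 1 falling.

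The Gs sum, at a log2 ratio of 0.00 when length-scaled, was -0.12 with TMM-scaled counts per kilobase, -0.12 with DESeq2 size factors, -0.076 with total counts, -0.14 with upper-quartile factors and -0.12 with a prior count of 2. The Gi/o sum, at 0.19, was 0.071, 0.073, 0.11, 0.053 and 0.071 in the same order, and 0.029 without the trend with exon length, where the Gs sum was -0.02. With the GC trend removed too, the Gs and Gi/o sums were 0.056 and 0.216. Across all genes at the minimum, Spearman's rho of the ratio was 0.332 with exon length and -0.471 with GC content, as a description over genes. No paired analysis was possible because each group has 1 library, and leaving out a library was not possible either. Depth limits the rarest receptors: the counting interval of the fold ran from 0.329 to 1.37 for Gpr119 and from 1.05 to 2.77 for Ghsr.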
